A study of Homo sapiens with 4 samples.

Results

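The ZNF genes of chromosome 19 were the protein-coding genes whose symbol begins with ZNF and whose locus lies on that chromosome. There were 148 of them among the 13036 genes with listed values. HCCLM3, a human hepatoma cell line, carried a lentiviral short hairpin RNA, either a control (shCtrl, 2 samples) or one against KIAA1429 (shKIAA1429, 2 samples), so both groups had been infected and differed in the hairpin. KIAA1429, now VIRMA, encodes a subunit of the writer complex for N6-methyladenosine (m6A), a mark on RNA. A single hairpin was used for the knockdown, and nothing in the labels said whether the replicates came from separate cultures, so the tests measure only the spread between these samples. Values are FPKM, fragments scaled to transcript length and to the total mapped, and a gene's value is the sum over its protein-coding transcripts.

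Most zinc finger proteins of this chromosome bind DNA through a row of C2H2 fingers, each a short loop in which paired cysteines and paired histidines hold a zinc ion. Many also carry a KRAB domain, which recruits TRIM28 and through it the histone methyltransferase SETDB1 and HP1 proteins, and a large share of these proteins silence transposable elements. The genes arose by repeated local duplication and lie in clusters, so neighbours often resemble each other in sequence.

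The repeat unit is shown for a few of the genes on which the values below turn, since it shows both what the family shares and how alike 2 members can be. Each line is the coding sequence of 1 finger, the middle one of those with the commonest length of 63 bases, read 5′ to 3′ on the gene's own strand from GRCh37. Capitals mark the codons of the 4 zinc ligands, cysteine, cysteine, histidine and histidine.
ZNF787 (chr19:56600025-56600087, minus strand): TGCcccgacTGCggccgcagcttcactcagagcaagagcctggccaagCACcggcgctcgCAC
ZNF460 (chr19:57802921-57802983, plus strand): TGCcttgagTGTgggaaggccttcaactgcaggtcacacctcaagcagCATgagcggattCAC
ZNF146 (chr19:36727730-36727792, plus strand): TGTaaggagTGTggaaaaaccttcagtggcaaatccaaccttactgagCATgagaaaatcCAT
ZNF580 (chr19:56154238-56154300, plus strand): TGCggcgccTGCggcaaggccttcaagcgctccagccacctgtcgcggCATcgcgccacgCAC
ZNF581 (chr19:56156286-56156348, plus strand): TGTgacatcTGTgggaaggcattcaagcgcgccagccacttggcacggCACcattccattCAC
ZNF418 (chr19:58438121-58438183, minus strand): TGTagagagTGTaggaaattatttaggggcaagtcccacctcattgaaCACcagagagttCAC
ZNF91 (chr19:23543573-23543635, minus strand): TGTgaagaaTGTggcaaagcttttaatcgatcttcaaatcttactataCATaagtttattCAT
ZNF587 (chr19:58371008-58371070, plus strand): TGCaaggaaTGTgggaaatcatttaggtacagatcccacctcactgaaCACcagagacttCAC
ZNF417 (chr19:58420356-58420418, minus strand): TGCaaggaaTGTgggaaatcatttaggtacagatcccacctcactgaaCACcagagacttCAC
The units of ZNF587 and ZNF417 were identical in all 63 bases, although the genes lie on opposite strands. The unit of ZNF418, from the same stretch of the chromosome, matched them at 51 of 63 positions. The neighbours ZNF580 and ZNF581 matched at 46 of 63 positions, and the units of ZNF787 and ZNF91 at 24.

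Translated from the annotated coding sequence, the 148 genes held a median of 12 fingers, from 1 in ZNF428 to 31 in ZNF91. In 145 genes every finger lay within a single coding exon. A match to the KRAB domain was found in 121 genes, with a median of 13 fingers, and none was found in 27, with a median of 8. This is a search for a pattern of residues, and ZNF473 and ZNF180, whose KRAB-like start is degenerate, were among those without a match. In 3 genes, ZNF599, ZNF223 and ZNF568, the listed coding transcripts encode no finger in the annotation. Whether those coding sequences are complete was not checked, so their values may not stand for the DNA-binding protein.

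The targeted gene was read first. VIRMA stood at 9.02 and 14.1 FPKM in shCtrl, against 5.81 and 8.52 FPKM in shKIAA1429. Both knockdown values lay below both control values, with a ratio of means of 0.619 and a log2 fold change of -0.61 ± 0.28 (SE). The fall did not pass the test (limma, adjusted p = 0.924), and the exact permutation test of 2 against 2 samples, two-sided, gave 0.333, the smallest p that design allows. Leaving out shCtrl replicate 2 moved the log2 fold change to -0.31, and leaving out shKIAA1429 replicate 1 moved it to -0.37. In bulk RNA, fewer cells with a transcript and less of it per cell cannot be told apart. The cell line was checked against hepatocyte markers. KRT8 and KRT18, keratins of hepatocytes and of other simple epithelia, ranged from 970.7 to 1170 FPKM, and SERPINA1 from 3.34 to 5.63 FPKM. No value could be given for the other 7 of 10 hepatocyte markers, ALB, AFP, APOA1, APOB, TTR, FGB and HNF4A, so the check rests on 3 genes. Of 5 markers of other cell types, 2 had values, CD68 of macrophages from 44.1 to 52.3 FPKM and COL1A1 of fibroblasts from 3.54 to 6.76 FPKM. Read depth is unknown because the values are normalised, so no counting error is attached to any value.

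As a group, the zinc finger genes were expressed at a low level in all 4 samples. Their FPKM summed to 583.0 and 533.8 in shCtrl and to 562.6 and 585.6 in shKIAA1429, which was 0.157% and 0.143% of all listed FPKM in the controls and 0.144% and 0.153% in the knockdown samples. The ranges of the groups overlapped. The median gene stood at 2.06 and 1.87 FPKM in shCtrl, against 1.96 and 2.17 FPKM in shKIAA1429. Averaged over samples, 32 genes lay under 1 FPKM, 102 between 1 and 10 FPKM, and 14 at 10 FPKM or more. The 10 highest genes held 34.6% of the summed level.

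The level differed with the KRAB match. The 121 genes with a match had a median of 1.77 and 1.58 FPKM in shCtrl and of 1.76 and 1.82 FPKM in shKIAA1429, while the 27 without one had 7.22 and 6.57 FPKM in shCtrl and 6.86 and 7.05 FPKM in shKIAA1429. The genes without a match were thus higher in each of the 4 samples. They supplied 10 of the 14 genes at 10 FPKM or more and 8 of the 10 highest. Genes are not independent replicates, so this is a description and no test was run on it.

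**Figure D1:**
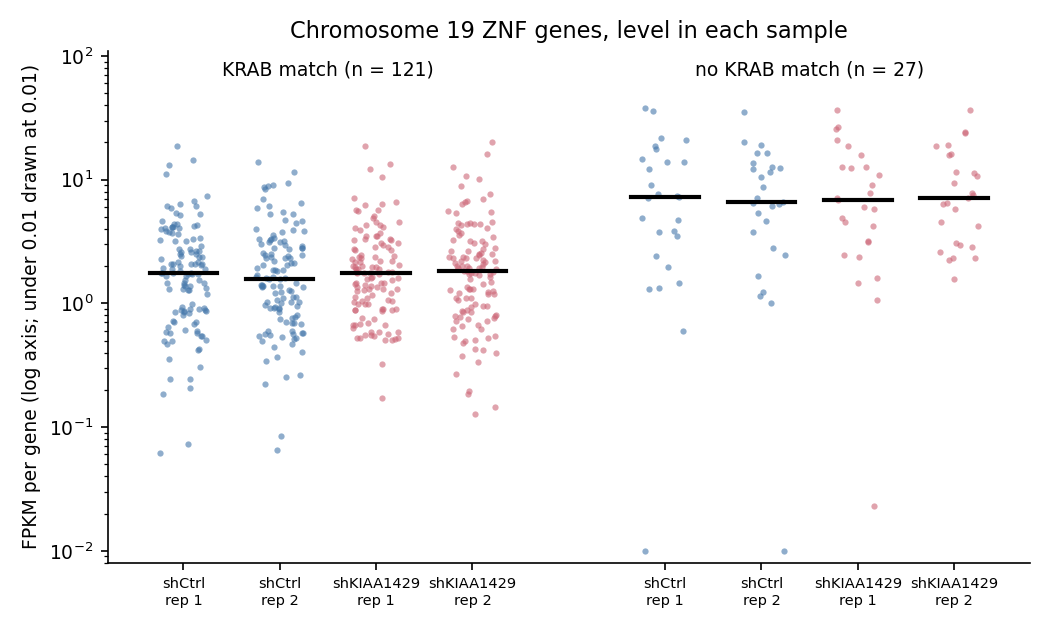
FPKM of each chromosome 19 ZNF gene in each sample, on a log axis, split by whether the protein has a KRAB match. Points are genes, blue for shCtrl and red for shKIAA1429, and bars are medians. The bars of the 27 genes without a match lie between 6.57 and 7.22 FPKM, and those of the 121 genes with one between 1.58 and 1.82 FPKM.

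Compared with other genes, the family was low for its chromosome. The median over samples was 1.87 FPKM for the 148 genes, against 2.996 FPKM for the 204 ZNF genes of other chromosomes, 12.6 FPKM for the 688 other protein-coding genes of chromosome 19 and 6.06 FPKM for all 13036 genes. Only 9.46% of the family reached 10 FPKM, against 13.7% of ZNF genes elsewhere and 55.8% of the other coding genes on the chromosome. The ZNF genes without a KRAB match, with a median of 6.86 FPKM, lay near the median of all genes. FPKM is scaled to length, which allows levels to be set beside each other across genes.

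Levels also differed between stretches of the chromosome. With a gap of at least 1 Mb between neighbouring starts taken as a break, they fell into 17 runs. The largest run, chr19:55987699-58992597 at the end of the long arm, held 50 genes with a median of 3.46 FPKM and 38 KRAB matches. It included ZNF787, the highest gene of the family, and ZNF580, ZNF581, ZNF579, ZNF460 and ZNF587B. The run at chr19:7069455-9785762 held 12 genes with a median of 3.76 FPKM. The other large runs were lower. The run at chr19:44029649-45579846, with 23 genes, had a median of 1.61 FPKM, the run at chr19:36705504-38270230, with 17 genes, 1.25 FPKM, and the run at chr19:52074551-52829175, with 11 genes, 1.71 FPKM. The run at chr19:11594242-12744654, with 13 genes, had a median of 0.986 FPKM, and 6 of its genes passed the filter on low values.

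**Figure D2:**
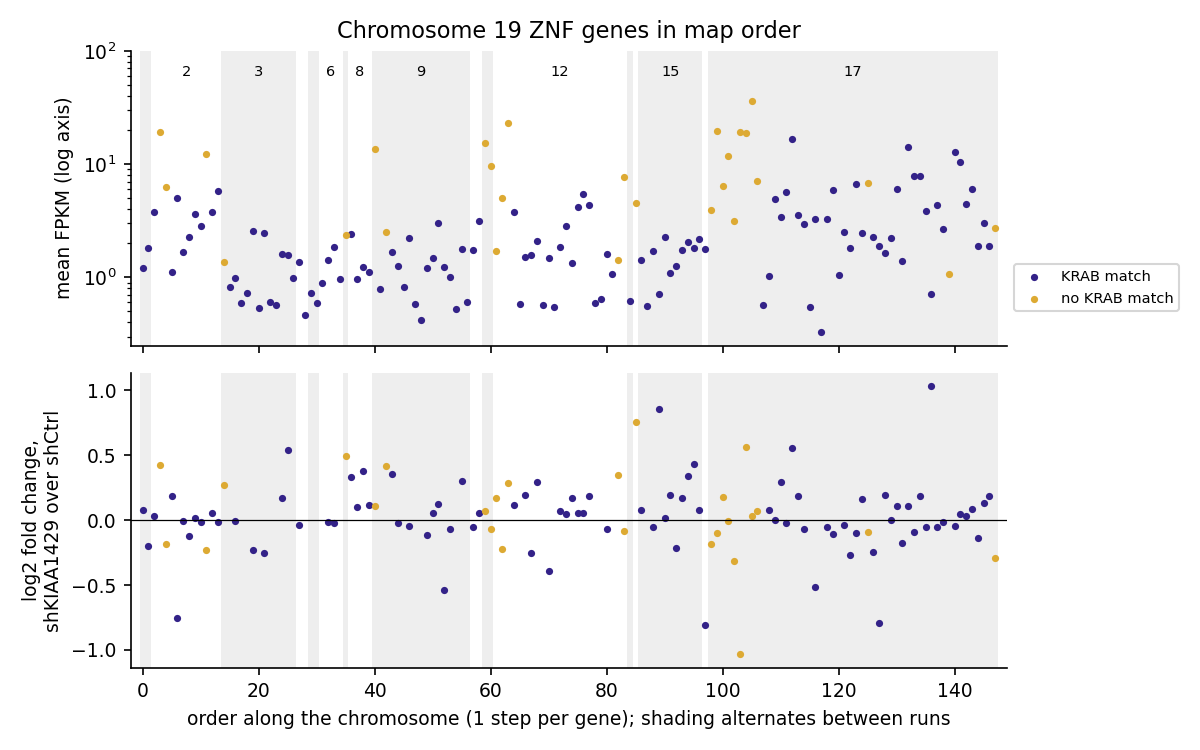
Chromosome 19 ZNF genes in map order, with the mean FPKM over 4 samples on a log axis (top) and the log2 fold change of shKIAA1429 over shCtrl for the tested genes (bottom). Shading alternates between runs, and runs with 4 or more genes carry their number, counted along the chromosome. Run 17, the largest with 50 genes, spans 0.328 to 36.2 FPKM, and in the lower panel points lie on both sides of 0 in each of the large runs.

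The question put to these genes was whether the hairpin against KIAA1429 changed their RNA levels. Of the 148 genes, 117 reached 1 FPKM in at least 2 samples and were tested, 91 with and 26 without a KRAB match. The other 31 had means of at most 1.06 FPKM. None of the 117 passed an adjusted p-value under 0.05 together with an absolute log2 fold change over 1 (limma, lowest adjusted p = 0.464), and across all 11590 genes tested the same thresholds called 0%. At an unadjusted p under 0.05, 3 of the 117 genes were higher in shKIAA1429 (2.56%, against 3.04% of all genes tested) and 1 was lower (0.855%, against 2.69%). By the fold change alone, 1 gene was over 1 on the log2 scale (0.855%, against 0.587% of all genes tested) and 1 was below -1 (0.855%, against 0.613%). The counts by p moved with the samples and the filter. The total of 4 became 11 without shCtrl replicate 1, 10 of them higher, and 7 without shKIAA1429 replicate 1. It was 1, ZNF581, when 1 FPKM was required in all 4 samples. The other 3, ZNF418, ZNF615 and ZNF527, reached 1 FPKM in 1 group only, so they passed the filter through the group in which they are high and had to differ. Tested transcript by transcript, none of 158 transcripts of the family passed (lowest adjusted p = 0.431), and 8 had an unadjusted p under 0.05, which was 5.06%, against 6.38% of all transcripts tested.

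The distribution of changes was centred near 0. The median absolute log2 fold change was 0.12 in the family, against 0.14 over all genes tested. An absolute log2 fold change over 0.5 was found in 10.3% of the family's tested genes, against 7.94% of all genes tested. The log2(FPKM + 1) scale understates the changes of low genes. The tested family had a median of 2.52 FPKM, against 7.25 FPKM for all genes tested, and the shares were not matched for level. The median log2 fold change was 0.04 over the 117 genes, with quartiles at -0.08 and 0.17, and 63 genes were higher and 54 lower. The medians were 0.03 with and 0.05 without a KRAB match. For comparison, the median was 0.02 over the 176 tested ZNF genes of other chromosomes, -0.02 over the 643 other coding genes of chromosome 19, and -0.01 over all genes tested. The median of the family was negative, at -0.01, without shCtrl replicate 2 or without shKIAA1429 replicate 2, and 0.07 without shKIAA1429 replicate 1. Both shKIAA1429 values exceeded both shCtrl values in 23 genes (19.7%, against 16.7% of all genes tested). Both were lower in 19 genes (16.2%, against 16.7%). Of these genes, 4 reached 1 FPKM in 1 group only, so the filter fixed their separation. They were ZNF418, ZNF615 and ZNF432 among the higher and ZNF527 among the lower. Such genes were not taken out of either share.

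**Figure D3:**
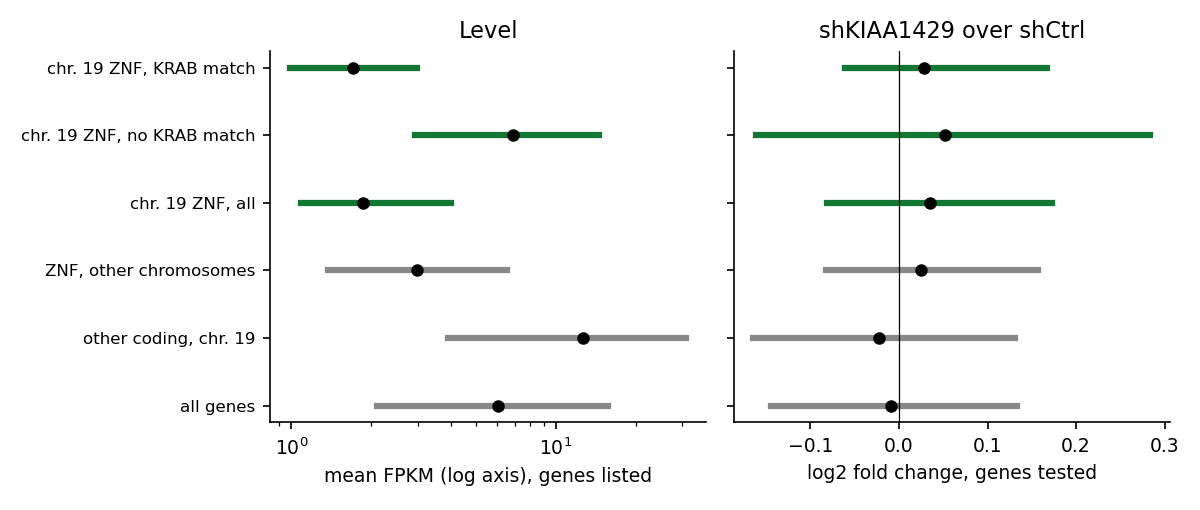
Median (black point) and span between the quartiles (bar) of the mean FPKM over 4 samples, on a log axis (left), and of the log2 fold change of shKIAA1429 over shCtrl (right), for the chromosome 19 ZNF genes, their 2 subgroups and 3 other gene classes. The level of the family, at a median of 1.87 FPKM, is the lowest but for its KRAB subgroup at 1.71 FPKM, and every bar on the right spans 0.

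Differences between samples of the same group were as large as those between groups. Over the 117 genes the median absolute difference on the log2(FPKM + 1) scale was 0.19 within shCtrl and 0.19 within shKIAA1429. Across groups it was 0.20 for the replicates numbered 1, 0.17 for those numbered 2, and 0.18 and 0.20 for the mixed pairs. Pearson's r over these genes was 0.908 within shCtrl and 0.939 within shKIAA1429, and 0.902 to 0.940 across groups, a description over genes of the same libraries.

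Single samples stood apart for some genes. In shCtrl replicate 2, 7 genes lay under 0.5 times their lowest other value, namely ZNF155, ZNF302, ZNF418, ZNF460, ZNF490, ZNF766 and ZNF836 (5.98%, against 0.966% of all genes tested). ZNF302, for one, stood at 4.06 and 0.557 FPKM in shCtrl, against 2.42 and 2.65 FPKM in shKIAA1429. In shKIAA1429 replicate 2, 4 genes did so, ZNF331, ZNF548, ZNF550 and ZNF551 (3.42%, against 0.802% of all genes tested). ZNF551 stood at 2.06 and 3.16 FPKM in shCtrl, against 1.97 and 0.418 FPKM in shKIAA1429. In shCtrl replicate 1 the genes were ZNF260, ZNF473, ZNF599 and ZNF615 (3.42%, against 0.733% of all genes tested). In shKIAA1429 replicate 1 there was none, against 0.777% of all genes tested. These genes were named after their values were seen. ZNF418 and ZNF615 passed the filter through shKIAA1429 only, with control values under 1 FPKM, and were not taken out of these shares. The shares were not matched for level, and the tested family had a median of 2.52 FPKM, against 7.25 FPKM for all genes tested. ZNF329 is a further case outside the tested set. It was listed at 0.000692 and 0.0028 FPKM in shCtrl, at 0.0231 FPKM in shKIAA1429 replicate 1 and at 4.22 FPKM in shKIAA1429 replicate 2.

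The 10 highest genes were followed one by one, because the log2(FPKM + 1) scale distorts their change least. ZNF787 stood at 36.0 and 35.4 FPKM in shCtrl, against 36.8 and 36.5 FPKM in shKIAA1429. These 4 values were the closest to each other in relative terms of the 10, and the log2 fold change was 0.04 ± 0.12 (SE). ZNF428 stood at 20.7 and 20.3 FPKM in shCtrl, against 26.9 and 23.8 FPKM in shKIAA1429. The groups did not overlap, and the log2 fold change of 0.29 ± 0.14 did not pass (limma, adjusted p = 0.931). ZNF579 gave 21.8 and 18.97 FPKM in shCtrl and 18.7 and 19.1 FPKM in shKIAA1429, and its groups overlapped.

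ZNF580 (chr19:56146382-56154835, plus strand), a protein of 3 fingers, had the lowest fold change of the 117 tested genes of the family. It stood at 37.8 and 16.3 FPKM in shCtrl, against 12.7 and 10.7 FPKM in shKIAA1429. Both knockdown values lay below both control values, but the controls differed from each other more than the lower control differed from the knockdown samples. The log2 fold change was -1.03 ± 0.41 (limma, adjusted p = 0.865), and without shCtrl replicate 1 it was -0.45. Its transcript ENST00000325333.9_1 carried most of the value, with 33.1 and 14.3 FPKM in shCtrl and 9.90 and 8.71 FPKM in shKIAA1429.

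ZNF581 (chr19:56146825-56156988, plus strand), the neighbour of ZNF580, ran the other way. It stood at 17.8 and 12.6 FPKM in shCtrl, against 21.0 and 24.4 FPKM in shKIAA1429. The groups did not overlap, with a log2 fold change of 0.56 ± 0.21 (limma, unadjusted p = 0.0459, adjusted p = 0.863), or 0.33 without shCtrl replicate 2. The loci of the 2 genes overlap on the same strand, and the ZNF581 transcript ENST00000587252.5_1 (chr19:56146825-56156988) runs across most of ZNF580. That transcript was listed at 0 in both shCtrl samples and at 0.635 and 0.794 FPKM in shKIAA1429, and was too low to be tested. Of the 100-base windows in the listed transcripts, 5.96% of those of ZNF580 and 11.2% of those of ZNF581 also occurred in another gene of the family, so how reads were shared out between the 2 genes bears on both values and was not tested.

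ZNF460 was the highest gene with a KRAB match. It stood at 18.7 and 8.85 FPKM in shCtrl, against 18.8 and 20.1 FPKM in shKIAA1429. The knockdown values lay just above shCtrl replicate 1, and the log2 fold change of 0.55 ± 0.35 fell to 0.05 without shCtrl replicate 2. ZNF358 stood at 18.7 and 13.7 FPKM in shCtrl, against 25.8 and 18.5 FPKM in shKIAA1429, and its groups overlapped. ZNF574 gave 13.9 and 16.3 FPKM in shCtrl and 15.9 and 15.8 FPKM in shKIAA1429. ZNF587B gave 13.2 and 13.8 FPKM in shCtrl and 13.3 and 16.02 FPKM in shKIAA1429. The groups of both overlapped, and their log2 fold changes were 0.07 ± 0.15 and 0.11 ± 0.16.

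Among the 71 tested genes with a mean of at least 2 FPKM, 13 had both knockdown values above both controls (18.3%, against 16% of all genes tested with that mean) and 11 had both below (15.5%, against 17%). Beyond ZNF581, ZNF460 and ZNF428, the largest of the higher ones were ZNF507, ZNF260 and ZNF264. ZNF507 stood at 2.43 and 1.23 FPKM in shCtrl, against 3.18 and 2.62 FPKM in shKIAA1429, with a log2 fold change of 0.49 ± 0.26. ZNF260 stood at 1.34 and 2.83 FPKM in shCtrl, against 3.11 and 2.87 FPKM in shKIAA1429. Its lower control made most of the difference, and without shCtrl replicate 1 the log2 fold change of 0.41 ± 0.27 was 0.06. ZNF264 stood at 2.65 and 3.23 FPKM in shCtrl, against 4.08 and 3.56 FPKM in shKIAA1429, with a log2 fold change of 0.29 ± 0.17. None of the 3 passed the test, the lowest adjusted p of limma being 0.943.

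On the lower side, ZNF580 was followed by ZNF317, ZNF784, ZNF446, ZNF625 and ZNF211. ZNF317 stood at 4.37 and 8.99 FPKM in shCtrl, against 3.51 and 3.20 FPKM in shKIAA1429. Without shCtrl replicate 2, its log2 fold change of -0.75 ± 0.33 (limma, adjusted p = 0.904) was -0.30. The 2 controls also differed in the transcript they listed. ENST00000360385.7_1 stood at 0.255 and 7.31 FPKM in the shCtrl samples, and ENST00000247956.10_1 at 4.12 and 1.68 FPKM.

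ZNF784 stood at 3.48 and 3.74 FPKM in shCtrl, against 2.45 and 2.97 FPKM in shKIAA1429. Its replicates were close within each group, and the log2 fold change was -0.32 ± 0.16 (limma, adjusted p = 0.936). ZNF446 stood at 3.77 and 2.47 FPKM in shCtrl, against 2.38 and 2.25 FPKM in shKIAA1429, with a log2 fold change of -0.29 ± 0.21 that was -0.06 without shCtrl replicate 1. Its locus overlaps that of ZNF324 on the same strand, and 30.6% of its 100-base windows also occurred in another gene of the family. ZNF625 gave 2.76 and 2.73 FPKM in shCtrl and 1.97 and 2.34 FPKM in shKIAA1429. ZNF211 gave 2.51 and 2.54 FPKM in shCtrl and 1.77 and 2.18 FPKM in shKIAA1429. Both had a log2 fold change of -0.25 ± 0.16.

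**Figure D4:**
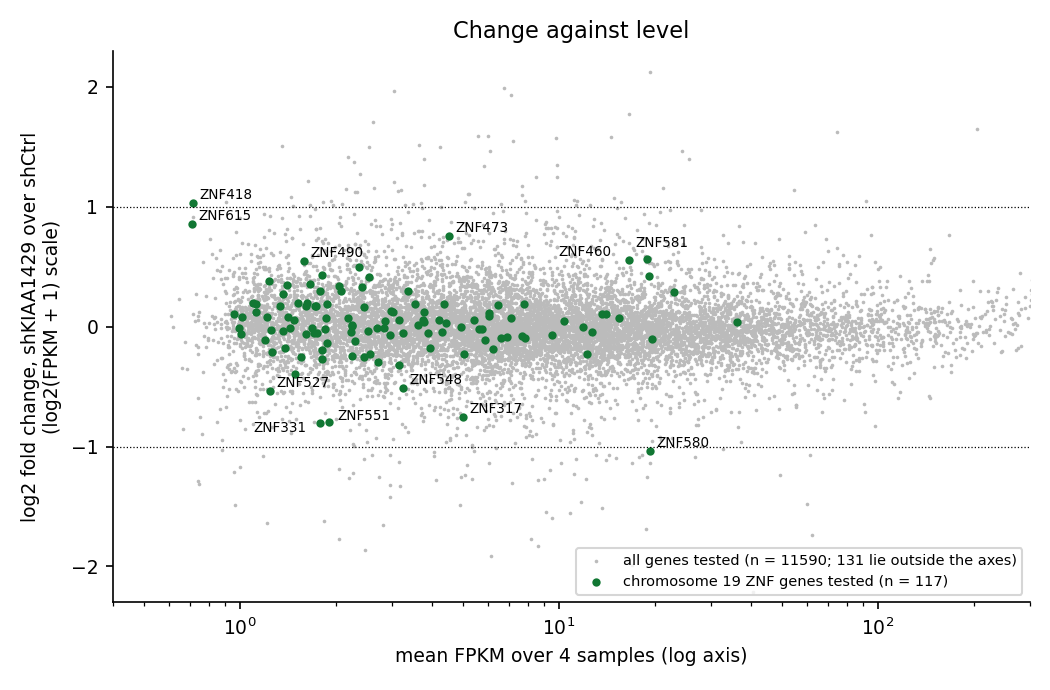
Log2 fold change of shKIAA1429 over shCtrl, on the log2(FPKM + 1) scale, against the mean FPKM over 4 samples on a log axis. Grey points are all genes tested, of which 131 lie outside the axes, and green points are the 117 tested chromosome 19 ZNF genes, named where the absolute log2 fold change is over 0.5. The dotted lines mark 1 and -1, and ZNF418 and ZNF580 are the green points past them.

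The smallest unadjusted p-values of the family belonged to 2 genes of low level. ZNF418 (chr19:58437420-58445273, minus strand) stood at 0.185 and 0.0653 FPKM in shCtrl, against 1.11 and 1.49 FPKM in shKIAA1429. The groups were well apart, with a log2 fold change of 1.03 ± 0.18 (limma, unadjusted p = 0.00283, adjusted p = 0.464). ZNF615 (chr19:52495997-52511455, minus strand) stood at 0.0723 and 0.367 FPKM in shCtrl, against 1.31 and 1.07 FPKM in shKIAA1429, with a log2 fold change of 0.86 ± 0.20 (limma, unadjusted p = 0.00887, adjusted p = 0.624). Both genes entered the test only through the group in which they were high, as their control values lay under 1 FPKM, so the separation is in part fixed by the filter. Just outside that limit were ZNF627, with 1.38 and 0.401 FPKM in shCtrl and 0.503 and 0.989 FPKM in shKIAA1429, and ZNF254, with 0.844 and 1.21 FPKM in shCtrl and 0.982 and 0.804 FPKM in shKIAA1429. Just inside it was ZNF470, with 0.901 and 1.02 FPKM in shCtrl and 0.899 and 1.25 FPKM in shKIAA1429.

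ZNF527 was the one gene with an unadjusted p under 0.05 that was lower. It stood at 1.45 and 1.87 FPKM in shCtrl, against 0.907 and 0.749 FPKM in shKIAA1429. It reached 1 FPKM in shCtrl only, so it too passed the filter through its high group, and the log2 fold change was -0.54 ± 0.17 (limma, unadjusted p = 0.0288, adjusted p = 0.823). The difference lay in its transcript ENST00000436120.6_1, at 1.08 and 1.33 FPKM in shCtrl and 0.323 and 0.211 FPKM in shKIAA1429, while ENST00000483919.5_1 ranged from 0.374 to 0.584 FPKM over the 4 samples.

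Members with a known role were listed as well. ZNF274, which brings SETDB1 and TRIM28 to the ends of other zinc finger genes, stood at 14.3 and 11.6 FPKM in shCtrl, against 12.2 and 12.7 FPKM in shKIAA1429. Its knockdown values lay between the controls. ZNF91, a repressor of SVA retrotransposons, stood at 1.47 and 1.38 FPKM in shCtrl, against 0.981 and 1.92 FPKM in shKIAA1429, where the knockdown values lay on either side of the controls. ZNF146, a protein made almost wholly of fingers, gave 13.8 and 12.5 FPKM in shCtrl and 12.6 and 16.01 FPKM in shKIAA1429, and its groups overlapped.

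ZNF331, an imprinted gene, stood at 2.66 and 2.31 FPKM in shCtrl, against 1.76 and 0.429 FPKM in shKIAA1429. Both knockdown values were lower, but they differed from each other by more than shKIAA1429 replicate 1 differed from either control, and the log2 fold change of -0.81 ± 0.35 (limma, adjusted p = 0.897) was -0.33 without shKIAA1429 replicate 2. ZNF473, which takes part in the processing of histone pre-mRNA, stood at 1.45 and 5.34 FPKM in shCtrl, against 4.88 and 6.51 FPKM in shKIAA1429. Its groups overlapped, and the log2 fold change of 0.75 ± 0.48 was 0.07 without shCtrl replicate 1.

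The remaining genes with a role showed overlap or small differences. ZNF224, a repressor of the aldolase A gene, stood at 3.26 and 2.33 FPKM in shCtrl, against 3.47 and 2.38 FPKM in shKIAA1429. ZNF420, a regulator of p53, stood at 1.28 and 1.29 FPKM in shCtrl, against 1.03 and 1.21 FPKM in shKIAA1429, with a log2 fold change of -0.11 ± 0.16. ZNF675, a partner of TRAF6, stood at 1.34 and 2.45 FPKM in shCtrl, against 1.61 and 1.9998 FPKM in shKIAA1429. The groups overlapped in ZNF224 and ZNF675 but not in ZNF420. ZNF382, a KRAB repressor, gave 1.53 and 1.02 FPKM in shCtrl and 1.25 and 1.19 FPKM in shKIAA1429. ZNF568 was not tested, at 0.304 and 0.253 FPKM in shCtrl and 0.172 and 0.943 FPKM in shKIAA1429. ZNF93 and ZNF43 were not analysed here.

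**Figure D5:**
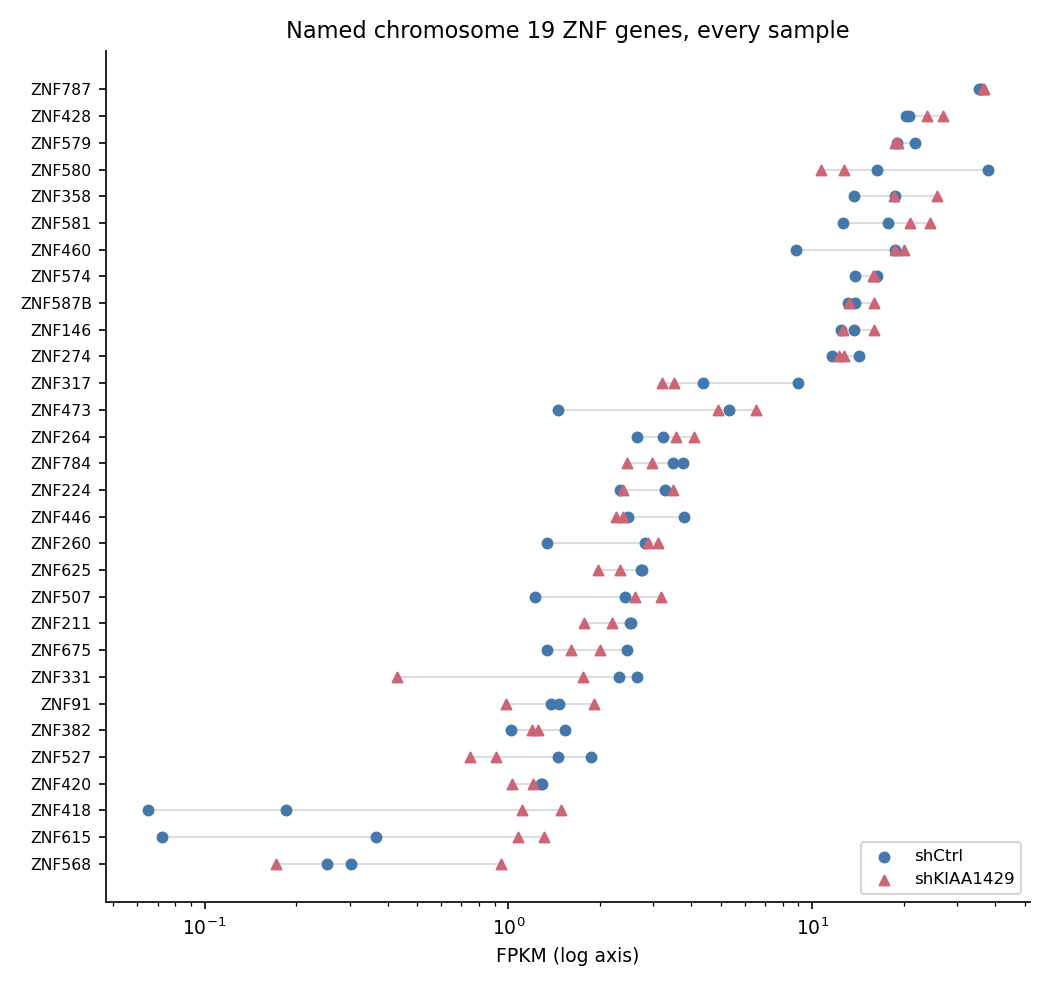
FPKM of the named chromosome 19 ZNF genes in every sample, on a log axis, ordered by their mean. Blue circles are the 2 shCtrl samples, red triangles the 2 shKIAA1429 samples, and grey lines span the 4 values. ZNF418 and ZNF615 show the widest gap between the groups on this axis, and in ZNF580, ZNF460, ZNF317 and ZNF473 a single shCtrl sample lies far from the others.

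The direction of change was also read run by run. In the largest run, 20 of 45 tested genes were higher and 25 lower, with a median log2 fold change of -0.01, and the groups did not overlap in 8 genes in each direction (17.8% each, against 16.7% of all genes tested). Among the 8 higher genes was ZNF418, which reached 1 FPKM in shKIAA1429 only and so had to differ. Over all genes tested, 48.0% were higher. In the run with 23 genes, 12 of 17 tested genes were higher (median 0.07), in the run with 17 genes 6 of 11 (median 0.06), in the run with 13 genes 3 of 6 (median 0.08), and in the run with 12 genes 5 of 12 (median -0.01). In the run at chr19:52074551-52829175, 8 of 10 tested genes were higher, with a median of 0.13, and in a run of 4 genes at chr19:35168544-35454953 all 4 were, with a median of 0.23. In the run of 4 the groups overlapped in every gene. In the run with 23 genes, 5 of 17 had both knockdown values above both controls (29.4%) and 3 had both below. In the run with 17 genes these were 3 of 11 (27.3%) and 2. They were 1 of 6 (16.7%) and 1 in the run with 13 genes, and 1 of 12 (8.33%) and 3 in that with 12. In the run at chr19:52074551-52829175, 4 of the 10 had both knockdown values above both controls (40%, against 16.7% of all genes tested). They were ZNF616, ZNF480, ZNF615 and ZNF432. Of these, ZNF615 and ZNF432 reached 1 FPKM in shKIAA1429 only and so passed the filter through their high group. In ZNF432 the values were 0.991 and 0.925 FPKM in shCtrl and 1.13 and 1.35 FPKM in shKIAA1429. ZNF766 and ZNF836, in the same run, each had 1 low control. ZNF766 stood at 2.62 and 0.442 FPKM in shCtrl, against 2.05 and 2.11 FPKM in shKIAA1429.

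Sums per gene can hide a change between transcripts, so the transcripts were compared too. Of the 148 genes, 73 had 1 coding transcript with values and 75 had between 2 and 7. The leading transcript was not the same in all 4 samples in 40 of the 75 (53.3%, against 42.1% of the 7496 genes with 2 or more coding transcripts). In 5 of these, ZNF71, ZNF225, ZNF527, ZNF576 and ZNF791, it was the same within each group and differed between the groups (6.67% of the 75, against 3.59% of all such genes). ZNF71 is given as an example. ENST00000328070.10_1 stood at 3.66 and 3.62 FPKM in shCtrl, against 0.354 and 2.95 FPKM in shKIAA1429, while ENST00000599599.5_2 stood at 0.935 and 1.14 FPKM in shCtrl, against 2.38 and 4.65 FPKM in shKIAA1429. The sum for ZNF71 was 4.59 and 4.75 FPKM in shCtrl and 2.74 and 7.60 FPKM in shKIAA1429, so the groups overlapped. A transcript of ZNF574, ENST00000222339.7_2, went the other way from that long ZNF581 transcript, with 0.635 and 0.597 FPKM in shCtrl and listed at 0 in both shKIAA1429 samples. ZNF155 had a transcript, ENST00000590411.5_1, listed at 0 in both shCtrl samples and at 0.686 and 0.673 FPKM in shKIAA1429. Every listed transcript reached 0.504 FPKM in at least 1 sample. A transcript at 0 throughout 1 group is therefore listed only through its other group, which in part fixes the separation. The share of such cases over all transcripts was not counted. These transcripts were picked after their values were seen. Those given for ZNF574, ZNF155 and ZNF581 did not reach 1 FPKM in 2 samples and were not tested. None of the family's 158 tested transcripts, which include both of ZNF71, passed.

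Close relatives and overlapping loci add doubt to some values. A 100-base window was shared with another member of the family in 21 genes, and over 5% of the windows were shared in 13. Among the 13 were ZNF580 with ZNF581 and ZNF324 with ZNF446. Their loci overlap on the same strand, so their shared windows need not come from likeness between relatives. ZNF587, with 14.2% shared, stood at 7.36 and 8.76 FPKM in shCtrl, against 6.24 and 8.91 FPKM in shKIAA1429. ZNF417, the gene with the identical finger shown above and with 21.3% shared, gave 4.16 and 3.79 FPKM in shCtrl and 3.50 and 4.09 FPKM in shKIAA1429. The groups overlapped in both. ZNF443 and ZNF799, with 14.1% shared each, were too low to be tested, ZNF443 at a mean of 0.569 FPKM. Locus overlap with another listed gene on the same strand was present in 15 genes of the family, and on the opposite strand in 6.

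The partners of the KRAB domain were measured in the same samples. Of 25 genes of the corepressor complex and of heterochromatin, 24 had values and were tested, with a median of 20.2 FPKM. None passed both thresholds, none had an unadjusted p under 0.05, and 3 had both knockdown values above and 3 both below the controls (12.5% each, against 16.7% of all genes tested). TRIM28, the scaffold that the KRAB domain binds, stood at 112.2 and 157.4 FPKM in shCtrl, against 110.5 and 146.3 FPKM in shKIAA1429. The highest zinc finger gene, ZNF787, reached 36.2 FPKM on average, and TRIM28 131.6 FPKM. SETDB1, which methylates histone H3, gave 12.1 and 10.05 FPKM in shCtrl and 11.96 and 11.5 FPKM in shKIAA1429. Both genes overlapped between the groups.

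HDAC2, a histone deacetylase of the NuRD complex, had the lowest fold change of the list. It stood at 7.92 and 18.5 FPKM in shCtrl, against 2.91 and 6.59 FPKM in shKIAA1429, with a log2 fold change of -1.27 ± 0.50 (limma, adjusted p = 0.865). The groups did not overlap, though the members of each differed by over 2-fold. MORC3 stood at 1.13 and 3.88 FPKM in shCtrl, against 4.03 and 4.22 FPKM in shKIAA1429, with a log2 fold change of 0.67 ± 0.41. The median log2 fold change of the list was -0.06.

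The transcripts were last compared for features that the choice of genes did not use. GGAC, the core of the sequence in which m6A is usually written, was counted in the longest listed coding transcript on its own strand. It occurred in each of the 147 family transcripts with sequence, at a median of 2.74 per kb, with quartiles at 1.95 and 3.64 per kb. In 11410 other coding genes 99.4% held it, at a median of 3.69 per kb, and in 203 ZNF genes of other chromosomes the median was 2.90 per kb. The family's transcripts were long in 1 exon, as the longest exon had a median of 3218 bases, against 1669 bases in the other coding genes. The ZNF genes of other chromosomes shared this, with a median of 2877 bases. A match to these letters is not a methylated site, and m6A itself was not analysed here.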

How the data were processed

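RNA of 4 HCCLM3 samples was sequenced, 2 per group, with groups and replicate numbers taken from the sample titles. The deposited files hold FPKM values per annotated transcript, which the authors made with a tool not given in the sources used here. The submitters' processing notes name Bowtie2 2.1.0 and hg19. Every listed transcript reached 0.504 FPKM in at least 1 sample, and read counts were not analysed here, so depth is unknown and no count test was run.

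Coding FPKM were summed per gene, genes reaching 1 FPKM in 2 or more of the samples were tested, and log2(FPKM + 1) was compared with limma 3.58.1 in R 4.3.3 (eBayes with a trend and 2.73 prior degrees of freedom, two-sided, no covariate). Adjusted p-values are Benjamini-Hochberg values over all 11590 genes tested. The script was tested on simulated data with changes larger than any in the family, which does not show whether smaller changes would be found. Fold changes on this scale understate those of low genes. Paralogs and overlapping genes remain uncertain, since how strand and multiply mapped reads were handled is not given.

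The zinc finger genes and the other lists were chosen with earlier results of these data known. Named genes were the 10 with the highest mean, the 6 largest rises and 6 largest falls among genes of at least 2 FPKM without overlap between groups, the 5 smallest unadjusted p-values, and 12 genes with a known role. Others are named where the text says so, or stand as examples of a run or a library.

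Sequence was read from GRCh37 with the GENCODE 44 annotation lifted to it, which matched 281 of the 285 family transcripts. A finger was counted where 2 cysteines with 2 to 4 residues between them were followed, 12 residues on, by 2 histidines with 3 to 5 residues between them. One coding sequence, that of ZNF274, was out of frame in this build and was read again at the break. Promoter and protein tables were not used. Plots were made in matplotlib 3.10.9 under Python 3.11.15.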

Additional observations from a re-analysis of the deposited data

How the results depend on the processing

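No chromosome 19 ZNF gene passed both thresholds in 14 of the 15 alternatives, which were upper quartile scaling, no filter, a filter of 1 FPKM in all 4 samples, 0.1 as the pseudocount, a block for the replicate number, a robust variance, all listed rows summed, leaving out each replicate, the adjusted p alone, single transcripts, and the ZFP, ZIM, ZIK and ZSCAN genes added. With the log2 fold change over 1 alone, 2 genes passed, ZNF418 and ZNF580. That count of 2 was 6 with a pseudocount of 0.1 and ranged from 0 to 7 when a replicate was left out, which gave 0 without shKIAA1429 replicate 2. Over all genes, leaving out a replicate gave 0 to 1 call, the 1 being without shCtrl replicate 1, and the other settings gave 0. The corepressor list stayed at 0 calls under its 11 alternatives. The log2 fold change of VIRMA kept its sign in all 11, from -0.91 to -0.31, both with a replicate left out, and did not pass in any.

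Of the 29 named genes tested, 21 kept their sign in every alternative and none passed both thresholds. The other 8 changed sign only when a replicate was left out, where the log2 fold change ranged from -0.039 to 0.18 for ZNF574, from -0.022 to 0.23 for ZNF587B, from -0.055 to 0.27 for ZNF146, from -0.29 to 0.27 for ZNF91, from -0.18 to 0.09 for ZNF274, from -0.16 to 0.25 for ZNF224, from -0.30 to 0.26 for ZNF675 and from -0.19 to 0.14 for ZNF382. A lone sample left in a group is assumed to vary like the other group.

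With the replicate block, the ZNF genes with an unadjusted p under 0.05 were 7 in place of 4, with 0 past both thresholds, 0 over all genes and 0 in the corepressor list, and the fold changes were the same. The labels say nothing of a shared batch or day behind the numbers. Same-numbered samples deviated from their group means with a correlation of 0.094 over the 117 ZNF genes and of 0.298 over all genes. Over all genes tested, the median absolute log2 difference was 0.18 and 0.16 between same-numbered samples. Within shCtrl it was 0.20 and within shKIAA1429 0.21. The main fit took the samples to share only a number, and whether they share more was not tested.

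The depth of the samples is unknown. With 2 samples per group, the standard error of a log2 fold change was as high as 0.57, in ZNF302. Of the tested ZNF genes, 4 reached 1 FPKM in 1 group only, ZNF418, ZNF432, ZNF527 and ZNF615. A filter of 1 FPKM in all samples left 1 ZNF gene, in place of 4, with an unadjusted p under 0.05.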
